A study of Brassica rapa with 12 samples.

Results

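The subject here is the response of Brassica rapa buds to silencing of BrCHR39, read from the 6 bud libraries of a series of 12. The tested libraries are 3 from buds of transgenic BrCHR39-silenced lines, set against 3 from buds of wild type plants. All plants were 8 weeks old and were grown in soil in a climate chamber. Stems of the same genotypes gave the other 6 libraries, 3 silenced and 3 wild type, and serve here only for comparison. Brassica rapa is the crop species of Chinese cabbage and turnip, and messenger RNA was sequenced from each sample. The labels do not say how many silenced lines were used, how the gene was silenced, whether plants were pooled, or whether the buds were axillary buds or flower buds.

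BrCHR39 is named in the series title as a chromatin remodelling ATPase that promotes apical dominance. Enzymes of this class use ATP to slide, evict or restructure nucleosomes, which changes how accessible DNA is to transcription. Apical dominance is the restraint of side buds by the growing shoot tip, in which auxin from the tip, strigolactones and cytokinins take part in plants generally. The comparison in bud asks which genes differ when BrCHR39 is silenced.

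Genes are given by identifier only. The gene table supplied paired 1 of the 41020 identifiers with a name, so pathway lists, tissue markers and BrCHR39 itself were not analysed here, and the genotype and tissue labels could not be checked on marker genes. The bud libraries held 12275190 to 15693349 reads assigned to genes, which puts a gene with 0 reads at up to 0.191 to 0.244 CPM (read counts scaled to library size, here 3 reads of the total, for counting error only). Replicate bud libraries differed by 1.58 to 1.69 times the variance of counting alone, so none was a copy of another. Nothing in the labels says that replicates came from separate plants, so the spread behind every p-value is that among libraries and may be technical. In bulk tissue, fewer cells of a type and less RNA per cell cannot be told apart.

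The genes described first are those with the largest shifts in CPM, a measure that favours abundant genes. Among called genes that changed at least 2-fold with no overlap between the groups, those with the largest gain and the largest loss of CPM in silenced buds are described in full. Their calls and lack of overlap in bud were conditions of this choice, so they describe these genes and are no further support. No name or role is given to them, because no file supplied annotates their identifiers. CPM values are scaled by TMM (trimmed mean of M-values, a scaling between libraries) and are not divided by gene length.

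Bra032775, with a coding length of 417 bases, had 3239, 3291 and 3326 CPM in silenced buds, against 494, 468 and 460 CPM in wild type buds. Every silenced bud library lay above every wild type bud library. The gene rose 6.94-fold, a log2 fold change of 2.79 (adjusted p = 3.99e-155 by edgeR's quasi-likelihood test, adjusted by Benjamini-Hochberg over all tested genes). Per length its level was 9288 ± 109 FPKM in silenced buds and 1277 ± 48.5 FPKM in wild type buds (SD, n = 3 each). In stem the order was the other way round, with 174 ± 3.58 CPM in silenced stems and 293 ± 4.74 CPM in wild type stems (SD, n = 3 each).

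Bra013576, with a coding length of 996 bases, also rose. It had 3113, 3046 and 3162 CPM in silenced buds, against 1286, 1324 and 1283 CPM in wild type buds, and the groups did not overlap. The gene rose 2.39-fold, a log2 fold change of 1.26 (edgeR, adjusted p = 1.06e-116). Its stem levels ran opposite here too, at 2985 ± 29.3 CPM in silenced stems and 5370 ± 8.37 CPM in wild type stems (SD, n = 3 each).

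Bra030386, with a coding length of 1581 bases, lost the most reads. It had 293, 283 and 284 CPM in silenced buds, against 2233, 2217 and 2255 CPM in wild type buds. All silenced bud libraries lay below all wild type bud libraries, and the gene fell 7.80-fold, a log2 fold change of -2.96 (edgeR, adjusted p = 1.90e-154). It was a bud gene by level: silenced stems had 2.41 ± 0.587 CPM and wild type stems 2.48 ± 0.288 CPM (SD, n = 3 each), with no call in stem (edgeR, adjusted p = 0.906). It took 0.0338% of the reads of silenced buds and 0.251% of those of wild type buds.

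Bra005099, with a coding length of 357 bases, had 638, 651 and 668 CPM in silenced buds, against 2328, 2347 and 2316 CPM in wild type buds. The groups did not overlap, and the gene fell 3.57-fold, a log2 fold change of -1.84 (edgeR, adjusted p = 1.06e-132). In stem it stood at 1007 ± 11.0 CPM in silenced plants and 848 ± 17.2 CPM in wild type plants (SD, n = 3 each), a small rise (log2 fold change 0.25, edgeR, adjusted p = 4.75e-23). The plot of these genes by library shows the spread within each group beside the distance between bud groups, for which the genes were chosen.

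**Figure D1:**
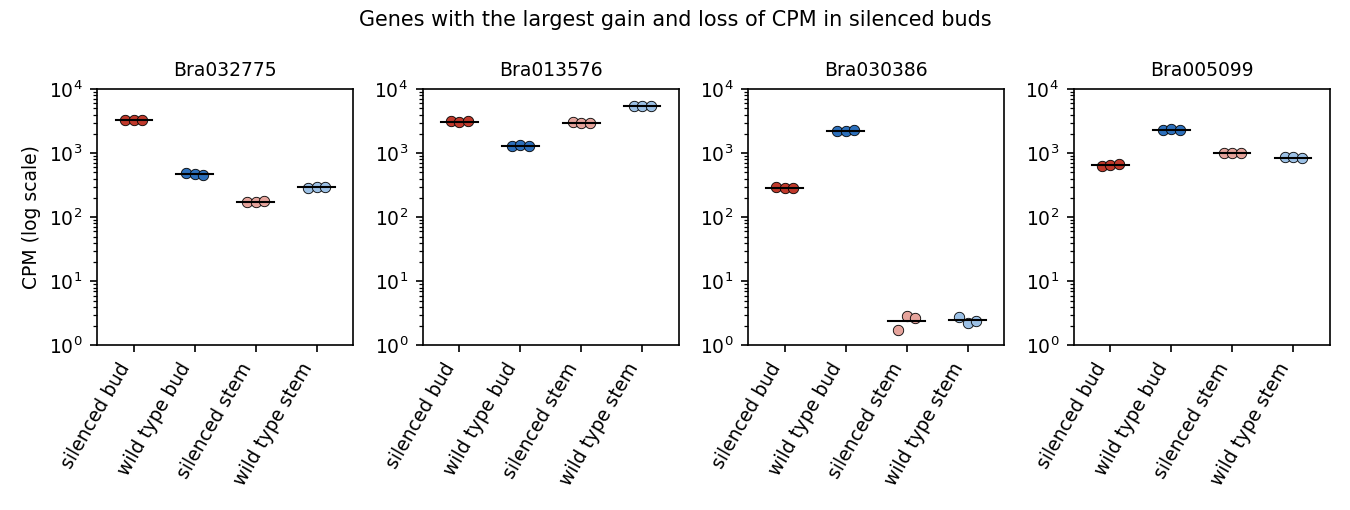
CPM on a log axis for Bra032775, Bra013576, Bra030386 and Bra005099 in each of the 12 libraries; points are libraries and black lines are group means. The 3 silenced bud libraries lie apart from the 3 wild type bud libraries in every panel, as the choice of genes required. For Bra032775 they run from 3239 to 3326 CPM against 460 to 494 CPM.

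Most tested genes were called, and over both directions together most calls were under 2-fold. Of 28114 genes tested, 22439 were called at an adjusted p under 0.05, which is 79.8% (edgeR's quasi-likelihood test). Rises made up 38.5% of the tested genes and falls 41.3%; scaled by library totals alone, 11561 genes were higher and 11038 lower. The median log2 fold change over all tested genes was -0.03, and the middle 50% of genes ran from -0.98 to 0.62. The scaling between libraries sets this centre, and with library totals alone the median was 0.02. A shift common to all genes can therefore not be seen. Among the calls, 11981 genes, 53.4%, changed by less than 2-fold. The directions differed: 6683 of the 11619 falls reached 2-fold, against 3775 of the 10820 rises. Replicate libraries lay close together, with a common coefficient of variation beyond counting of 2.89% in edgeR. As said above, this spread is that among libraries and may be technical.

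The larger the fold change, the more the falls outnumbered the rises. At 1.5-fold or more, 7086 genes were higher (25.2% of those tested) and 8948 lower (31.8%), 1.26 times as many falls as rises. At 2-fold the numbers were 3775 higher (13.4%) and 6683 lower (23.8%), a ratio of 1.77. At 4-fold they were 734 higher (2.61%) and 3596 lower (12.8%), a ratio of 4.90. At 8-fold they were 260 higher (0.925%) and 2211 lower (7.86%), a ratio of 8.50. At 16-fold they were 97 higher (0.345%) and 1445 lower (5.14%), and at 32-fold 47 higher (0.167%) and 921 lower (3.28%), a ratio of 19.6. These classes are cut from the comparison itself and their counts were not tested. Those of large folds include genes with 0 reads on one side, whose fitted fold change depends on the prior count and is no bound. At 32-fold the median level over all bud libraries was 2.11 CPM for falls and 0.946 CPM for rises. For genes at or below these medians, a 32-fold lower side lies under the 0.191 to 0.244 CPM that 0 reads allow. The ratio at 32-fold thus rests in large part on folds that the reads cannot measure. Of the 10458 genes changed at least 2-fold, 176 had bud groups that overlapped in CPM.

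**Figure D2:**
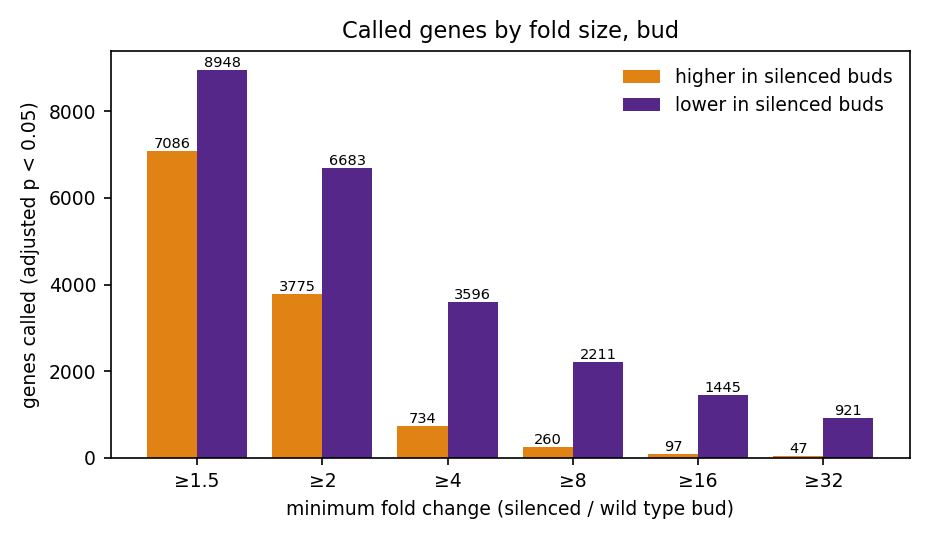
Number of genes called higher or lower in silenced buds, on the y axis, at 6 minimum fold changes on the x axis (3 silenced against 3 wild type libraries, adjusted p under 0.05). Falls outnumber rises at each limit, from 8948 against 7086 at 1.5-fold to 921 against 47 at 32-fold. The counts at 32-fold rest in large part on folds that the reads cannot measure.

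Large falls touched few reads and moderate falls touched many. Genes that fell at least 8-fold took 0.239%, 0.243% and 0.240% of the reads in silenced buds, against 4.59%, 4.57% and 4.56% in wild type buds. Genes that fell at least 2-fold took 8.68%, 8.74% and 8.74% of the reads in silenced buds, against 29.6%, 29.6% and 29.6% in wild type buds. Genes that rose at least 2-fold took 20.2%, 20.1% and 20.1% in silenced buds, against 7.26%, 7.24% and 7.25% in wild type buds. Genes changed by less than 2-fold, or not called, thus took 71.1 ± 0.0186% of the reads in silenced buds and 63.0 ± 0.0323% in wild type buds (SD, n = 3 each). The genes were chosen by these same libraries, so the shares describe the classes and are no test.

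Loss of all reads was also more frequent than the reverse. Of the 41020 genes listed, 394 had 0 reads in all 3 silenced bud libraries while wild type buds had at least 30 over their 3 libraries. The reverse, 0 reads in wild type buds and at least 30 in silenced buds, held for 27 genes. With at least 300 reads on the expressed side, the numbers were 60 genes without reads in silenced buds and 2 without reads in wild type buds. Their shares of all genes with that many reads in a group were not worked out. A gene with 0 reads in a library may still be expressed, at up to 0.191 to 0.244 CPM.

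Silenced buds held reads from fewer genes at equal depth. With every bud library thinned to the smallest total, 29666, 29617 and 29603 genes had at least 1 read in silenced buds, against 31541, 31550 and 31551 in wild type buds. At least 10 reads were found for 24137 ± 41.0 genes in silenced buds and 25903 ± 25.3 in wild type buds, and at least 100 reads for 16236 ± 25.1 and 16805 ± 36.5 genes in silenced and wild type buds (SD, n = 3 each). The groups did not overlap at any of these limits. An exact two-sided permutation test of 3 against 3 libraries gave p = 0.10 for each, the smallest value it allows. Unthinned, the groups overlapped at 100 reads, with 16810 to 17483 genes in silenced buds and 16841 to 18160 in wild type buds (exact permutation p = 0.40).

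The stem libraries, which are on neither side of the bud comparison although they share its fit, show where the strongly changed bud genes were otherwise expressed. Of the 2211 genes that fell at least 8-fold in bud, 674, or 30.5%, did not reach 0.5 CPM in any of the 6 stem libraries. Of the 260 that rose at least 8-fold in bud, 80, or 30.8%, did so. Over all tested genes this share was 6.73%. Genes this low in stem passed the low-count filter (minimum count 10) only through bud libraries, which can favour large bud changes of both directions. The excess over all tested genes is therefore a description, and nothing is concluded from it.

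The same strongly changed genes had no common direction in stem. Of those that fell at least 8-fold in bud, 609, or 27.5%, rose at least 2-fold in silenced stems and 466, or 21.1%, fell as far. These 609 genes were 15.0% of all genes raised at least 2-fold in stem, and the 466 were 11.6% of all genes lowered. Of those that rose at least 8-fold in bud, 66, or 25.4%, rose at least 2-fold in silenced stems and 56, or 21.5%, fell as far. They were 1.63% of the genes raised and 1.39% of those lowered in stem. Over all tested genes 14.4% rose and 14.3% fell at least 2-fold in silenced stems. All bud changes of at least 2-fold, large ones included, leaned the opposite way in stem. The median stem log2 fold change was 0.38 for genes that fell at least 2-fold in bud and -0.30 for those that rose. It was 0.05 over all tested genes, and 0 for both the falls and the rises of at least 8-fold.

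Ranked by level over both genotypes, the class of lowest level had the most falls per rise, and ranked on wild type buds alone it had the fewest. Tested genes were put into 5 classes of equal size by their mean CPM over all 6 bud libraries, so that the choice favours neither genotype. In the lowest class, up to 2.02 CPM, 856 of 5623 genes rose at least 2-fold (15.2%) and 2305 fell (41.0%), with a median log2 fold change of -0.72. The next class, up to 7.13 CPM, had 852 rises (15.2%) and 1644 falls (29.2%). In the middle class 680 genes rose (12.1%) and 1016 fell (18.1%). The numbers were nearest to each other in level class 4, from 17.2 to 39.4 CPM, with 686 rises (12.2%) and 748 falls (13.3%). In the highest class 701 genes rose (12.5%) and 970 fell (17.3%), while the median log2 fold change was 0.12.

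Fold size depended on level as well. Falls of at least 8-fold were called for 1092 genes of the lowest class and 113 of the highest, and rises of that size for 144 and 3 genes. The lowest class included 111 genes with no read in any bud library, which could not be called. The share of genes called at any size was 63.7% in the lowest class and 92.8% in the highest. The fitted coefficient of variation between replicates had a median of 13.1% in the lowest class and 2.52% in the highest.

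Levels per length gave a similar order. In 5 classes of mean FPKM the lowest, up to 2.31 FPKM, had 14.4% of genes rising at least 2-fold and 41.7% falling as far. The highest, from 40.8 FPKM, had 11.7% higher and 20.9% lower.

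Classes ranked by level in the stem libraries also showed more falls than rises at the low end. Among genes of up to 1.60 CPM in stem, 1030 rose at least 2-fold in silenced buds (18.3%) and 2313 fell (41.1%). Among genes of over 43.2 CPM in stem, 475 rose (8.45%) and 1172 fell (20.8%), with a median log2 fold change of -0.07. Falls per rise were thus 2.25 in the lowest and 2.47 in the highest class of stem level. Genes too low in stem to pass the low-count filter there were kept only through their bud libraries. Membership of the lowest class thus depends in part on bud reads, and its share of large bud changes is not independent of them.

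The pattern across levels depended on the libraries used to rank the genes. Ranked on silenced buds alone, the highest class had 17.8% of genes rising at least 2-fold and 8.45% falling as far, whereas ranked on wild type buds alone it had 6.63% higher and 24.9% lower. Each ranking uses a side of the comparison itself. Ranking on silenced buds favours falls in the lowest class and rises in the highest, and ranking on wild type buds favours the reverse. Ranked on silenced buds alone, 6.49% of the genes of the lowest class were higher and 60.8% lower, which is thus no support. Ranked on wild type buds alone, 23.8% were higher and 29.6% lower, so falls still outnumbered rises there. On the wild type ranking falls per rise were 1.24 in the lowest class and 3.76 in the highest, the reverse of the order by mean level, where they were 2.69 and 1.38. These rankings were added after the results were seen.

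**Figure D3:**
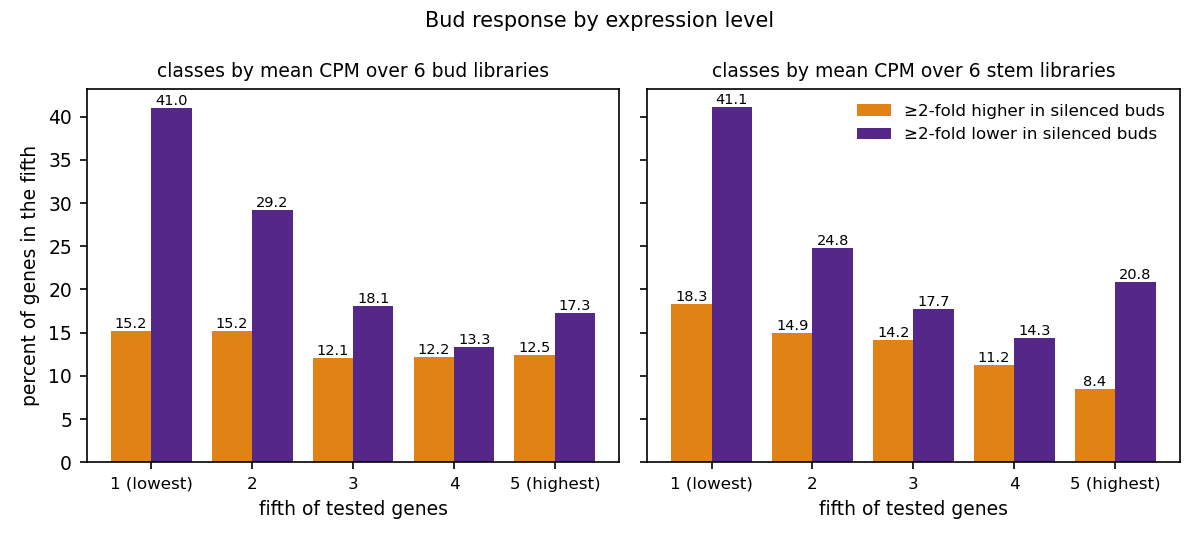
Percent of genes at least 2-fold higher or lower in silenced buds (y axis) in 5 classes of the tested genes from lowest to highest level (x axis), ranked by mean CPM over the 6 bud libraries (left) and over the 6 stem libraries (right). The lowest class has 41.0% of genes lower and 15.2% higher by bud level, and 41.1% lower and 18.3% higher by stem level.

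Genes with short coding sequences took a smaller share of the reads in silenced buds than in wild type buds, and genes with long ones a larger share. With the tested genes in 5 classes of coding length, the shortest class, 150 to 609 bases, took 16.5%, 16.8% and 16.7% of the reads in silenced buds, against 20.4%, 20.5% and 20.2% in wild type buds. The longest class, 1794 to 16227 bases, took 26.7%, 26.5% and 26.5% in silenced buds, against 21.2%, 21.1% and 21.3% in wild type buds. In neither class did the groups overlap. An exact two-sided permutation test gave p = 0.10 for each, the smallest that 3 against 3 libraries allow. A share of a library's reads does not depend on the scaling between libraries. Averaged over reads, the coding length was 1515 ± 4.38 bases in silenced buds and 1357 ± 3.92 bases in wild type buds (SD, n = 3 each).

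The classes between them differed less. The class of 609 to 936 bases took 17.7 ± 0.0335% of the reads in silenced buds and 19.97 ± 0.0425% in wild type buds (SD, n = 3 each). The class of 936 to 1284 bases took 18.7 ± 0.0181% and 18.3 ± 0.0179% in silenced and wild type buds, and that of 1284 to 1794 bases took 20.3 ± 0.0489% and 20.1 ± 0.0369%.

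Calls followed the same order. In the shortest class 742 genes rose at least 2-fold (13.2%) and 1719 fell (30.6%). In the longest, 875 rose (15.6%) and 881 fell (15.7%). With 10 classes instead of 5, rises outnumbered falls in the longest, from 2391 bases, with 487 genes higher (17.3%) and 367 lower (13.1%), and the median log2 fold change was 0.35. The shortest of the 10 classes, up to 438 bases, had 377 genes higher (13.4%), 914 lower (32.5%) and a median of -0.36.

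The length gap, the median log2 fold change of the shortest class minus that of the longest, was -0.55 in bud. Measured in each library as a deviation from the mean of the 6 bud libraries, it was -0.28, -0.24 and -0.25 in silenced buds, against 0.28, 0.28 and 0.25 in wild type buds. The means were -0.26 ± 0.0225 in silenced buds and 0.27 ± 0.0196 in wild type buds (SD, n = 3 each), so the difference of -0.53 was far larger than the spread between replicates. The groups did not overlap (exact permutation p = 0.10, two-sided).

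**Figure D4:**
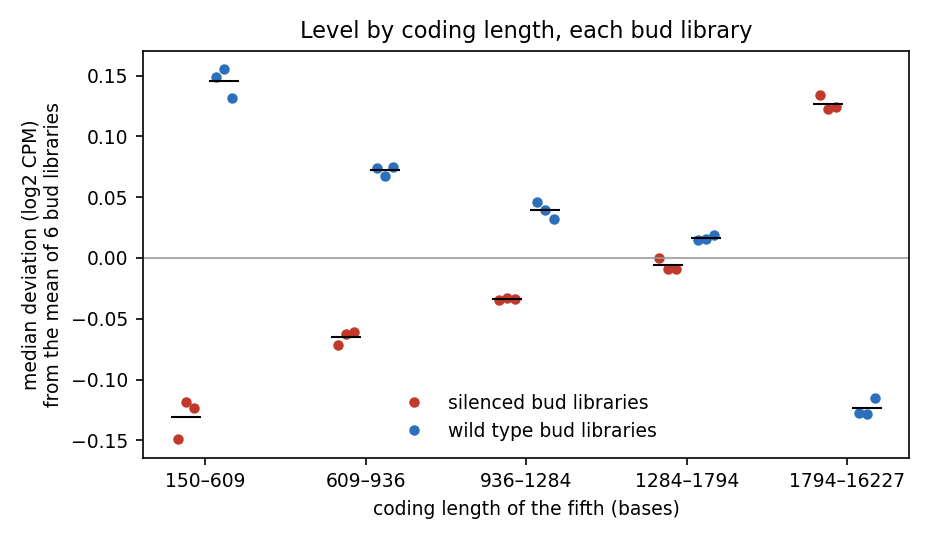
Median deviation of log2 CPM from the mean of the 6 bud libraries (y axis) in 5 classes of coding length (x axis, bases), with 1 point per library and black lines for group means. Silenced bud libraries lie lowest, at -0.15 to -0.12, in the shortest class and highest, at 0.12 to 0.13, in the longest, and wild type bud libraries mirror them.

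The length gap was widest among abundant genes when level was taken as CPM. Within the highest class of bud CPM the shortest genes had a median log2 fold change of -0.60 and the longest 0.44, a gap of -1.03. In level classes 4, 3 and 2 the gap was -0.57, -0.28 and 0.04, and in the lowest -0.10. Ranked per length, by FPKM, the gap was present at every level and ran from -0.45 to -0.71, again widest in the highest class. Within a class of FPKM, however, short genes had fewer reads than long ones. In FPKM class 2 the median level was 1.47 CPM for the shortest genes and 10.2 CPM for the longest. Length and read level thus cannot be told apart in the gap by FPKM. CPM itself rises with length, with a Spearman's rho of 0.182 across the 28114 genes, which are not independent.

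Short abundant genes were lowered more often than raised, and long abundant genes raised more often than lowered. Of the 928 genes in both the highest class of CPM and the shortest class of length, 81 rose at least 2-fold (8.73%) and 349 fell (37.6%). They took 12.4%, 12.6% and 12.6% of the reads in silenced buds, against 15.7%, 15.8% and 15.6% in wild type buds. Bra032775 and Bra005099, described above, belong to this group and moved in opposite directions. Of the 1543 long abundant genes, 228 rose at least 2-fold (14.8%) and 85 fell (5.51%). They took 19.8%, 19.6% and 19.6% of the reads in silenced buds, against 15.3%, 15.2% and 15.4% in wild type buds. In both groups of genes the silenced and wild type bud libraries did not overlap (exact permutation p = 0.10, two-sided).

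**Figure D5:**
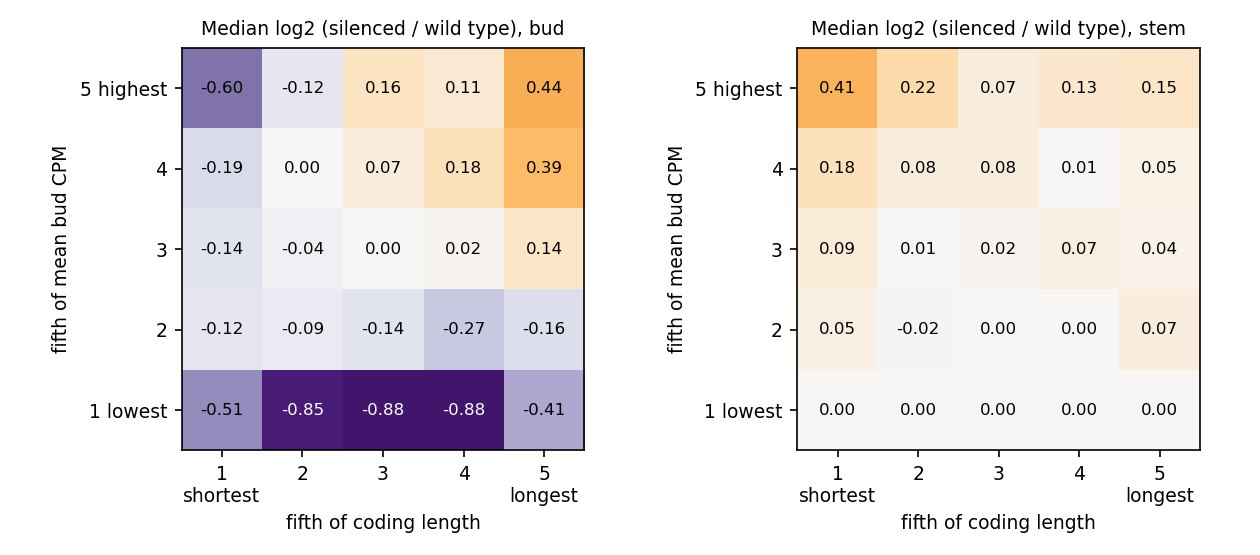
Median log2 fold change, silenced over wild type, in bud (left) and stem (right) for genes divided into 5 classes of coding length (x axis) and of mean bud CPM (y axis); orange is higher and purple lower in silenced plants. In the top row the medians run from -0.60 to 0.44 in bud from the shortest to the longest genes, and from 0.41 to 0.15 in stem.

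In stems the length gap over all tested genes lay near 0. The shortest class took 19.1 ± 0.111% of the reads in silenced stems and 17.9 ± 0.117% in wild type stems, and the longest took 21.2 ± 0.0844% and 20.2 ± 0.0791% in silenced and wild type stems (SD, n = 3 each). Both classes thus lay higher in silenced stems. The length gap per library was 0.0187 ± 0.0150 in silenced stems and -0.0176 ± 0.0187 in wild type stems (SD, n = 3 each, exact permutation p = 0.20, two-sided). By level it varied. In the highest class of bud CPM the stem gap was 0.27, against -1.03 in bud, and in level class 4 it was 0.13, against -0.57. In the other classes of bud CPM it lay between -0.02 and 0.05, and by FPKM it ran from -0.05 to 0.09. Tested gene by gene, the effect in bud was more positive than that in stem for 35.5% of all tested genes and more negative for 38.8% (edgeR's interaction, 12 libraries). Without silenced bud replicate 1 the balance turned, with 10647 genes more positive and 10104 more negative. Among the short abundant genes 263 of 928 were more positive in bud and 604 more negative. Among the long abundant genes 851 of 1543 were more positive in bud and 531 more negative. The short abundant genes had a median stem log2 fold change of 0.41, against -0.60 in bud.

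At 2-fold, rises came from longer genes than falls, and at larger folds the order varied. Genes that rose at least 2-fold in bud had a median coding length of 1128 bases and those that fell 978 bases, around the 1098 bases of all tested genes. At 4-fold the medians were 1011 bases for rises and 1002 for falls. At 8-fold they were 964.5 bases for the 260 rises and 1023 for the 2211 falls, and at 16-fold 984 for rises and 1020 for falls. At 32-fold rises were longer again, at 1011 bases for 47 genes against 954 for the 921 falls. Genes that fell at least 8-fold had a median level of 2.06 CPM over the 6 bud libraries, against 11.4 CPM for all tested genes.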

How the data were processed

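Reads per gene were used as deposited. Tools listed in the submitters' processing notes, with no roles stated, are featureCounts 2.0.1, HISAT2 2.1.0, TopHat2 and Bowtie 1.0.1. Genome build, annotation and strandedness: not given in the sources used here, so antisense overlaps and reads shared by near-identical copies cannot be resolved. The authors' deposited counts are whole reads per gene for 41020 genes. The deposited FPKM values equal count divided by library total and by 1 length per gene; this length was whole within a relative tolerance of 1e-06 for all 35651 genes with reads and always a multiple of 3, hence a coding length.

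Counts were tested in edgeR 4.0.16 (R 4.3.3) with filterByExpr (minimum count 10, 28114 genes kept and 12906 removed), TMM scaling and a quasi-likelihood fit of all 12 libraries with 1 term per group; a call needs an adjusted p under 0.05 (two-sided, Benjamini-Hochberg over all tested genes). CPM uses TMM library sizes. Shares of reads use library totals. Classes are ranks of the tested genes. The genes named are those with the largest CPM difference among called genes changed at least 2-fold with groups that do not overlap, at most 2 per direction. Members, classes and rules were chosen with earlier results of these data known. The planned pathway and marker lists could not be matched to identifiers. Scripts were tested on simulated counts. Alternatives were other scalings, no filter, DESeq2 1.42.0, the 6 bud libraries alone, a replicate block, limma 3.58.1 on log2(FPKM + 1) and log2(FPKM + 0.1), other class limits, a test against 2-fold and leaving out each bud library.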

Additional observations from a re-analysis of the deposited data

Results flagged for a closer look

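For each of the 4 genes named, the silencing effect in bud differed from that in stem by edgeR's interaction test. These genes were chosen for large bud changes, which favours a large difference from stem, so the values are descriptive. The effect in bud minus that in stem was 3.55 on the log2 scale for Bra032775 (adjusted p = 3.62e-141) and 2.11 for Bra013576 (adjusted p = 3.51e-128), both higher in silenced buds and lower in silenced stems. It was -2.93 for Bra030386 (adjusted p = 4.55e-29), which averaged 2.41 CPM in silenced stems and 2.48 CPM in wild type stems, and -2.08 for Bra005099 (edgeR, adjusted p = 1.85e-118). Over all tested genes the effect was more negative in bud than in stem for 10922 (38.8%) and more positive for 9982 (35.5%). This balance turned without silenced bud replicate 1 (10104 more negative and 10647 more positive), without silenced bud replicate 3 (10136 and 10562) and with library totals alone, a setting added for this count after the data were seen (10399 and 10539).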

How the results depend on the processing

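The 4 named genes kept their direction and stayed called under every alternative fit, 72 values in all. Falls outnumbered rises at 2-fold and at 8-fold under each alternative. At any size the balance turned: library totals alone called 11561 genes higher and 11038 lower. With limma on log2(FPKM + 1) it was 11196 higher and 10565 lower, and on log2(FPKM + 0.1) 10825 higher and 10341 lower. On log2(FPKM + 1) with no filter it did not turn, at 11778 higher and 12234 lower. The test against 2-fold called 2491 genes higher and 5471 lower. With no low-count filter, 435 genes were at least 8-fold higher, and the lowest class, which then includes genes the filter had removed, had 3.30% of genes at least 2-fold higher and 13.0% lower. limma on log2(FPKM + 1), whose pseudocount shrinks folds of low genes, gave 41 genes at least 8-fold higher and 631 lower with or without a filter. Its lowest class had 6.91% of genes higher and 22.9% lower with the filter, and 0.126% and 0.547% without. Ranked on wild type buds alone, 23.8% of the lowest and 6.63% of the highest class were higher. Ranked on silenced buds alone, 6.49% of the lowest class were higher and 8.45% of the highest lower.

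The length gap of -0.55 was -0.47 with no low-count filter, -0.47 with limma on log2(FPKM + 1), -0.57 on log2(FPKM + 0.1) and -0.21 on log2(FPKM + 1) with no filter. It was -0.71 between the ends of 10 classes and -0.64 among genes of at least 10 CPM. Leaving out 1 bud library at a time gave -0.57 to -0.52. The difference in the share of reads, silenced minus wild type, was -3.68 percentage points in the shortest class; it was -3.22 with no filter, -1.70 with 10 classes and -4.28 among genes of at least 10 CPM. In the longest class it was 5.40, against 5.62, 3.83 and 4.94 under the same settings.

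The replicate numbers do not pair the bud libraries: deviations from the group means correlated at 0.00736 to 0.0102 between same-numbered libraries across 14884 genes. Each library nevertheless correlated best with its own number. With the replicate number as a block, 10746 genes were called higher and 11528 lower. In the lowest class of level, up to 2.02 CPM, the share called was 63.7%; the part of depth in this was not tested.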

Other observations

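It took slightly more genes to reach 50% of the reads in silenced buds, although fewer genes had any read at equal depth. The most abundant genes that together hold 50% of the reads numbered 2128, 2129 and 2123 in silenced buds, against 2009, 1995 and 2015 in wild type buds, with no overlap between the groups (exact permutation p = 0.10, two-sided, the smallest that 3 against 3 libraries allow). Averaged over reads, coding length was 1350 ± 2.82 bases in silenced stems and 1341 ± 2.96 bases in wild type stems (SD, n = 3 each).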
